A study of Zea mays with 4 samples.

Results

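The 8 genes described here make and answer to jasmonate in maize: the allene oxide synthase genes aos1 (GeneID:542150), aos2 (GeneID:100279433), aos3 (GeneID:103644066) and aos4 (GeneID:103644067), the allene oxide cyclase genes aoc1 (GeneID:542151) and aoc2 (GeneID:100273356), and the protease inhibitor genes wip1 (GeneID:542729) and MPI (GeneID:542408). They were selected by NCBI gene number, with earlier results of these data known, and all 8 were found among the 48174 genes of the deposited count table. RNA was sequenced from the last 1 mm of roots of B73 seedlings, with primary and seminal roots in 1 pool. B73 is the inbred line behind the maize reference genome. The seedlings were 3 days past germination and had spent 2 h in swirled water at 28 °C. All 4 samples are biological replicates of this group, and no dry, unwounded or jasmonate-treated group was analysed here. No source used here says whether the replicates came from separate batches of seedlings, and the spread between them may be partly technical.

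Jasmonates are oxygenated fatty acid hormones that plants form on wounding, in defence and in development. In plastids a 13-lipoxygenase oxidises linolenic acid, allene oxide synthase turns the hydroperoxide into an unstable allene oxide, and allene oxide cyclase closes it to oxophytodienoic acid. That acid is reduced in peroxisomes by an oxophytodienoate reductase and shortened by beta-oxidation to jasmonic acid. Its isoleucine conjugate joins the receptor COI1 to JAZ repressors, which are then degraded, and this frees transcription factors such as MYC2. Among the genes that rise with wounding and jasmonate in maize are wip1, which encodes an inhibitor of the Bowman-Birk type, and MPI, which encodes a maize proteinase inhibitor. Both proteins act against digestive proteases.

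Levels are given as CPM, estimated counts scaled to a library total of 1e+06. To compare genes, CPM was also divided by the length of the gene span in kb, which is 631 to 1966 bases for these 8 genes and includes any introns. Library totals ran from 23385589 to 26829395 counts, and a count of 0 allows up to 0.112 to 0.128 CPM. Of 4 listed root tip genes, the root hair gene rth3 stood at 82.3 ± 4.54 CPM (SD, n = 4) and SCR, the SCARECROW gene of root patterning, at 40.3 ± 2.7 CPM. The quiescent centre gene wox5B stood at 1.00 ± 0.0851 CPM, and the crown root gene rtcs had no count. All 5 genes of dividing cells were detected (1 CPM or more in every library), against 43.5% of all genes. Their summed level was 612 to 690 CPM per library. The 15 photosynthesis genes summed to 1.01 to 1.62 CPM, with 6 at 0, and the 48 seed storage genes to 0.742 to 1.04 CPM, with 43 at 0. In pooled tips, expression in fewer cells and less RNA per cell cannot be told apart.

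All 8 genes reached 1 CPM in every library, the limit used for detection. Of all 48174 genes, 43.5% did so. Their levels ranged from 2.43 CPM for wip1 to 471 CPM for aos1, with a median of 12.2 CPM. The median of the 22752 genes that passed the filter on low counts was 15.3 CPM.

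Among the allene oxide synthases, aos1 carried nearly all of the reads. It stood at 478.5, 418.5, 478.8 and 509.8 CPM in replicates 1 to 4. Replicate 2 was the lowest and replicate 4 the highest, and every library lay above all values of the other 7 genes. The mean was 471 ± 38.2 CPM (SD, n = 4), and aos1 ranked 214 among all genes by mean CPM. Per kb of span it stood at 242.9 ± 19.7 CPM.

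The other synthase genes were low and close together. aos2 stood at 5.17, 5.86, 4.70 and 4.32 CPM, a mean of 5.01 ± 0.663 CPM. aos3 stood at 5.03, 5.30, 5.95 and 5.09 CPM, a mean of 5.34 ± 0.419 CPM. aos4 stood at 4.69, 4.48, 5.09 and 4.36 CPM, a mean of 4.65 ± 0.320 CPM. The ranges of these 3 genes overlap, and by mean CPM they ranked 16726, 16454 and 17002 among all genes.

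The share of aos1 in the summed level of the 4 synthase genes was 96.7 ± 0.434% per kb (SD, n = 4), with a range of 96.2 to 97.2%. In read counts its share was 96.9 ± 0.402%. Within libraries, aos1 exceeded aos2 by a log2 ratio of 6.37 ± 0.30 per kb, aos3 by 6.48 ± 0.17 and aos4 by 6.55 ± 0.15, or 82.6-, 89.0- and 93.4-fold. Each of these ratios was above 0 in 4 of 4 libraries. In a two-sided exact sign-flip permutation test over the 4 libraries each had p = 0.125, which is the smallest p that 4 libraries can give, so none could pass 0.05. The differences in level were many times the spread between replicates.

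Between aos2, aos3 and aos4 no order was resolved. The log2 ratio of aos2 to aos3 per kb was 0.11 ± 0.23, above 0 in 2 of 4 libraries. That of aos2 to aos4 was 0.18 ± 0.22, above 0 in 3 of 4. In the exact sign-flip permutation test, p was 0.5 and 0.25. By read counts the mean ratio of aos2 to aos3 turned to -0.10.

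aos3 and aos4 are not fully separable in the deposited counts. Both genes had non-whole estimated counts, as arise where a read is divided between genes, 131.5 and 122.5 in replicate 1, 128.5 and 108.5 in replicate 2, and 159.5 and 136.5 in replicate 3, while replicate 4 had 119 and 102. Their sum was whole in 4 of 4 libraries, at 254, 237, 296 and 221. The other 6 members had whole counts throughout, and 11.3% of all genes with a count had a non-whole value in some library. In the gene table aos3 and aos4 are direct neighbours with no gene between them. The level of each is uncertain. Their summed level was 9.72, 9.78, 11.03 and 9.45 CPM in replicates 1 to 4. The log2 ratio of aos3 to aos4 was 0.07 ± 0.06 per kb, above 0 in 3 of 4 libraries, and 0.20 ± 0.06 in read counts, above 0 in 4 of 4. Its size thus depended on the length correction.

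**Figure D1:**
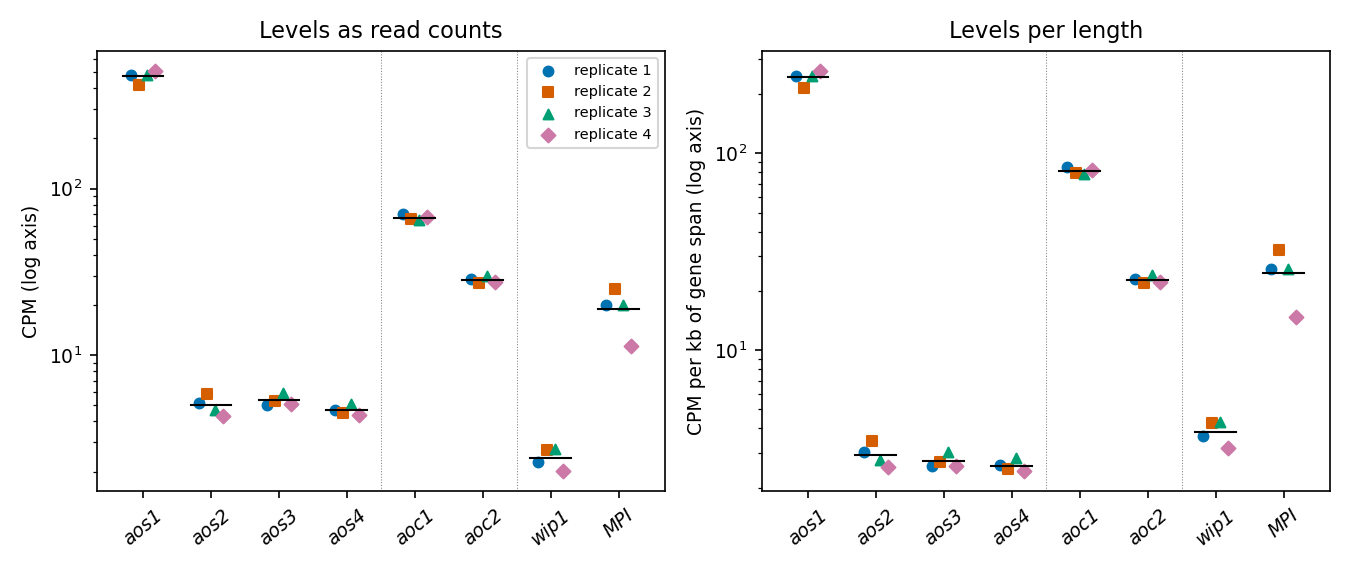
Level of each gene in each library, as CPM (left) and as CPM per kb of gene span (right), on log axes. Points are replicates and black lines are means. aos1 lies far above aos2, aos3 and aos4 in every library, and MPI has the widest spread, from 11.3 to 24.9 CPM.

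Both cyclase genes were well expressed and steady between libraries. aoc1 stood at 70.0, 65.5, 64.7 and 67.5 CPM in replicates 1 to 4, a mean of 66.9 ± 2.36 CPM. aoc2 stood at 28.5, 27.2, 29.9 and 27.7 CPM, a mean of 28.3 ± 1.17 CPM. The ranges did not overlap. The highest library was replicate 1 for aoc1 and replicate 3 for aoc2.

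The log2 ratio of aoc1 to aoc2 was 1.84 ± 0.09 per kb, or 3.57-fold, and 1.24 ± 0.09 in read counts, or 2.36-fold. It was above 0 in 4 of 4 libraries on both scales (exact sign-flip permutation p = 0.125, the smallest possible). aoc1 held 78.1 ± 1.02% of the summed cyclase level per kb (SD, n = 4), against 96.7% for aos1 among the synthases. The summed synthases exceeded the summed cyclases by a log2 ratio of 1.27 ± 0.10 per kb, or 2.41-fold, in 4 of 4 libraries. In read counts the sums were 486 ± 37.5 and 95.2 ± 2.42 CPM.

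The inhibitor genes were lower than aos1 and aoc1. MPI stood at 19.9, 24.9, 20.0 and 11.3 CPM in replicates 1 to 4, a mean of 19.1 ± 5.65 CPM. Replicate 2 was the highest and replicate 4 the lowest. wip1 stood at 2.30, 2.68, 2.72 and 2.01 CPM, a mean of 2.43 ± 0.338 CPM, from 47 to 73 counts per library. It was also lowest in replicate 4, but the exact 95% Poisson interval there, 1.48 to 2.67 CPM, overlapped those of the other libraries. Such intervals cover counting error only. wip1 lay above 8.29% of the genes detected in every library, and MPI above 51.8%.

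MPI exceeded wip1 by a log2 ratio of 2.62 ± 0.32 per kb, or 6.16-fold, in 4 of 4 libraries. The ratio was 2.81, 2.91, 2.58 and 2.19 in replicates 1 to 4. MPI held 86.0 ± 2.77% of the summed inhibitor level per kb (SD, n = 4).

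Summed synthesis genes exceeded the inhibitors in every library. The 6 synthesis genes summed to 592, 527, 589 and 619 CPM, and the inhibitors to 22.2, 27.6, 22.7 and 13.3 CPM. The library with the lowest synthesis sum, replicate 2, had the highest inhibitor sum, and replicate 4 had the reverse. In read counts aos1 held 81.0% of the synthesis sum on average, and MPI 88.2% of the inhibitor sum. Of the 6 synthesis genes only aos1 was both lowest in replicate 2 and highest in replicate 4, and aos2 ran the other way. Per kb the log2 ratio of the synthesis sum to the inhibitor sum was 3.69 ± 0.51, or 12.9-fold (exact sign-flip permutation p = 0.125). It was 12.3-, 8.93-, 11.9- and 21.0-fold in replicates 1 to 4. The sum rested on aos1, which held 68.3 ± 1.67% of the synthesis sum per kb. Without aos1 the log2 ratio was 2.03 ± 0.45. Between the median of the 6 synthesis genes and that of the 2 inhibitors it was -0.10 ± 0.42.

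Ordered by mean log2 level per kb, the genes ran aos1, aoc1, MPI, aoc2, wip1, aos2, aos3 and aos4. aos1 exceeded aoc1 by 1.57 ± 0.11, aoc1 exceeded MPI by 1.78 ± 0.50 and aoc2 exceeded wip1 by 2.57 ± 0.19, each in 4 of 4 libraries and on both scales. MPI and aoc2 did not differ beyond their spread per kb (0.06 ± 0.48, above 0 in 3 of 4 libraries). In read counts MPI was the lower of these in 4 of 4 libraries, at -0.63 ± 0.48. wip1 exceeded aos2 by 0.39 ± 0.17 per kb in 4 of 4 libraries, whereas in read counts it was lower in 4 of 4, at -1.04 ± 0.17. These 2 orders depended on the length correction. In all, 13 pairs were compared, and for 9 of them the mean log2 ratio per kb was above 2 SD and had the same sign in every library. The gene of higher mean log2 level per kb was put first in each pair, so a positive mean was fixed by construction. The 9 include wip1 to aos2, whose sign turned in read counts.

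**Figure D2:**
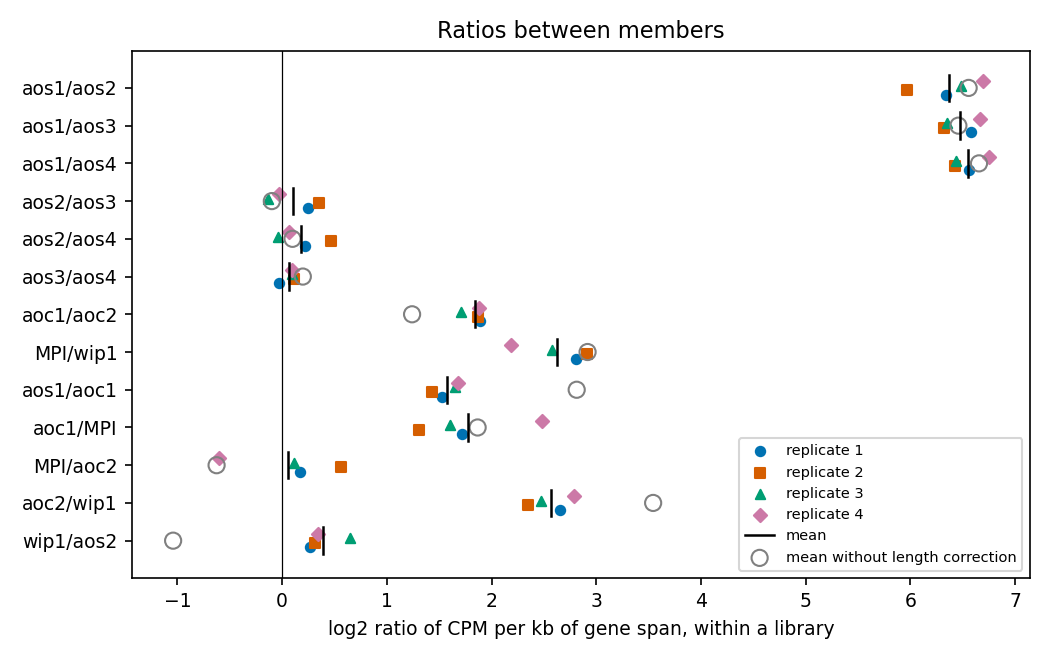
Within-library log2 ratios between pairs of genes. Coloured points are replicates and black bars means, per kb of gene span, and open circles are means of the same ratios in CPM without length correction. Ratios of aos1 to its paralogs lie between 6.37 and 6.55 on average, and those among aos2, aos3 and aos4 lie around 0.

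MPI and aos1 were the members whose replicates differed by more than counting error. The 4 counts of each gene were tested by chi-square against Poisson error over 22752 genes with Benjamini-Hochberg adjustment, taking reads as independent. aos1 (adjusted p = 1.8e-48, chi-square test on 4 libraries) and MPI (adjusted p = 2.65e-23) passed, which makes 2 of 8, against 25.7% of all tested genes. The other 6 had adjusted p from 0.245 to 0.763. The chi-square test detects smaller differences at higher counts. Of 2202 genes at 100 CPM or more, the class of aos1, 71.0% passed it. Of 11498 genes at 10 to 100 CPM, the class of MPI, 28.8% did.

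The spread of MPI was wide for its level. Its coefficient of variation (CV, SD over mean) was 29.6%, where counting error alone gives 4.56%. The median CV of 7699 tested genes within 2-fold of its level was 6.02%, and 99.9% of them had a lower CV. In replicate 4 MPI stood 1.91-fold below the mean of the other libraries, 11.3 against 21.6 CPM, a log2 difference of -0.93. The median of all tested genes for the same difference was -0.01, and 0 of the 7699 genes was as low. This comparison of replicate 4 was chosen after its value was seen.

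For aos1 the CV was 8.10%, against a median of 4.04% for 607 genes of like level, 89.5% of which had a lower CV. The CVs of aos3, aos4, aoc1 and aoc2 were below the medians of genes of like level. For aos2 the CV was 13.2% against a median of 9.91%, and for wip1 13.9% against 13.4%. Over the 8 members the median CV was 7.97%, and over all tested genes it was 6.96%.

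Against the trend of genes of equal abundance, no member passed the test of edgeR's quasi-likelihood dispersions at an adjusted p of 0.05, which 0.0396% of all tested genes passed. MPI had a dispersion 22.6 times the trend (edgeR adjusted p = 0.0854), and aos1 4.04 times (edgeR adjusted p = 0.830). At an unadjusted p of 0.05, 2 of 8 passed, MPI and aos1, as did 5.94% of all tested genes. MPI passed without replicate 3 (edgeR adjusted p = 0.0106), where 0.438% of all tested genes passed, and without a filter on low counts, where 1.54% did. It was the 1 member among DESeq2's dispersion outliers, which were 0.765% of all tested genes. Without replicate 4 MPI did not pass the edgeR test (edgeR adjusted p = 0.944), while it still varied beyond counting error (chi-square adjusted p = 0.00113 over 3 libraries). Without replicate 2, the dispersion of aos1 was 0.647 times the trend.

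**Figure D3:**
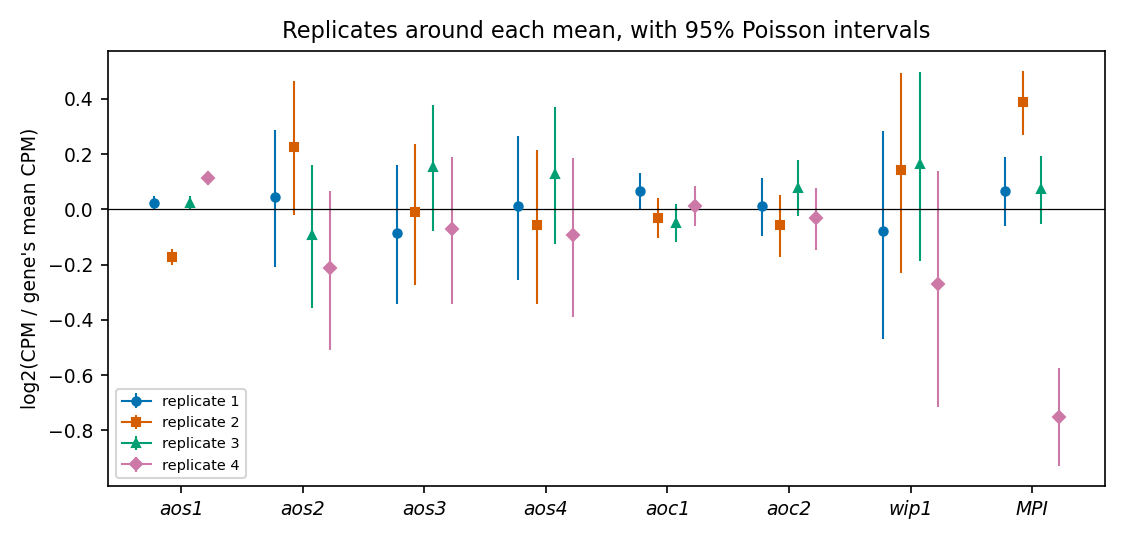
Each replicate's CPM relative to the mean of its gene on a log2 scale, with exact 95% Poisson intervals that cover counting error only. Replicate 4 of MPI and replicate 2 of aos1 lie apart from the others, while the intervals of wip1, aos2, aos3 and aos4 overlap.

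**Figure D4:**
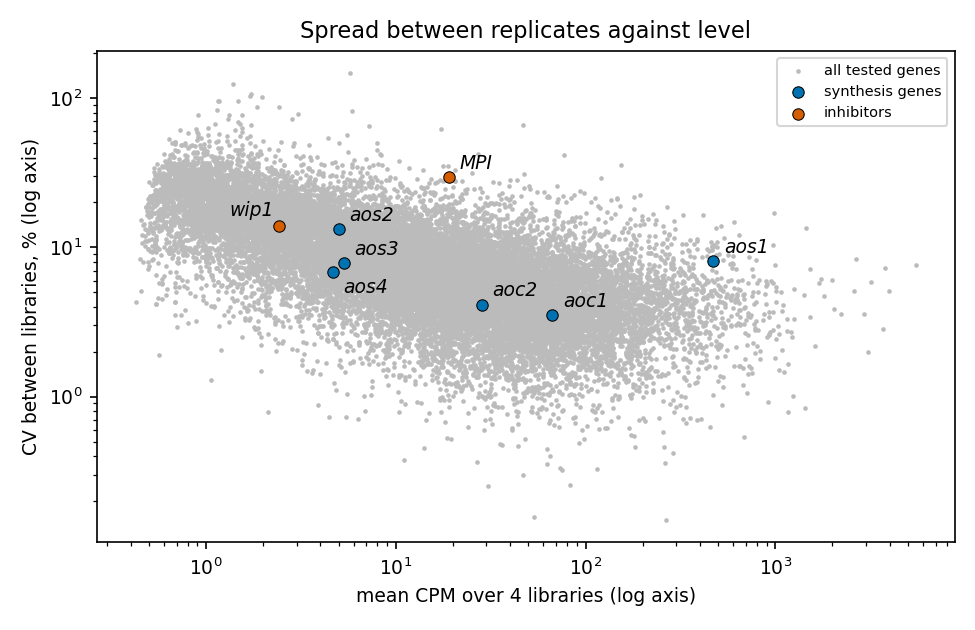
CV between libraries against mean CPM for 22752 tested genes (grey), with the synthesis genes in blue and the inhibitors in orange, on log axes. MPI lies at the upper edge of the genes of its level, at 29.6%, and aoc1 and aoc2 lie below the middle.

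Lipoxygenases act before allene oxide synthase. Against 43.5% of all genes, 10 of 12 lipoxygenase genes were detected. They are given in read counts, since their spans hold introns. Among the genes known for 13-lipoxygenases, which feed the jasmonate route, lox11 stood at 38.4 ± 3.31 CPM (SD, n = 4), ts1 at 25.2 ± 3.08 CPM and lox9 at 18.9 ± 1.09 CPM. ts1, also named LOX8, makes jasmonate for stamen development in the tassel. lox7 and lox10 stayed below 0.5 CPM in every library, and lox10, known for leaf volatile synthesis, had no count in replicate 4. Together these 5 genes summed to 78.8 to 88.3 CPM. All 6 genes assigned here to the 9-lipoxygenases, a class that feeds other oxylipins, were detected. Of these, lox1 stood at 793 ± 65.1 CPM, lox2 at 598 ± 52.4 CPM and lox4 at 65.8 ± 1.52 CPM. Both classes were assigned from general knowledge and not from these data, which do not show the products of any lipoxygenase, lox1 included. lox2, lox3 and lox4 had non-whole counts in at least 1 library and are of uncertain level. lox6, which belongs to neither class here, stood at 6.76 ± 1.11 CPM.

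Of 8 oxophytodienoate reductase genes 6 were detected, against 43.5% of all genes. opr7 and opr8, known to be needed for jasmonate synthesis in maize, stood at 16.8 ± 1.13 and 21.2 ± 2.02 CPM. opr4 stood at 62.6 ± 6.75 CPM. opr1, opr2 and opr3 stood between 7.54 and 9.58 CPM, and opr5 and opr6 did not reach 1 CPM. No gene name matched the lists of further allene oxide genes or of conjugation, methylation and turnover. The only match for the phospholipase and beta-oxidation list, dad1, is named after a cell death gene and was left out.

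Against 43.5% of all genes, 14 of 22 perception and signalling genes were detected. They are MYC2a, for the transcription factor of the jasmonate response, at 42.0 ± 3.82 CPM, and 13 of 21 TIFY genes, a family that holds the JAZ repressors and others. The most abundant TIFY genes were LOC100276383 (TIFY27) at 92.1 ± 8.62 CPM, LOC100383759 (TIFY30) at 62.5 ± 3.84 CPM and LOC100273108 (TIFY24) at 49.1 ± 2.91 CPM. The gene listed as JAZ9 stood at 0.256 ± 0.170 CPM, below the detection limit. The table does not say which other TIFY genes are JAZ repressors. No gene matched the names sought for the receptor COI1, so the list covers no receptor gene.

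Of 12 other protease inhibitor genes 9 were detected, against 43.5% of all genes, and the 12 had a summed level of 208 to 219 CPM. The cystatin genes, whose products act on cysteine proteases, were led by LOC100101525 (Cystatin2) at 38.1 ± 4.86 CPM and LOC542213 (Cystatin-1) at 33.5 ± 1.37 CPM. The serpin gene LOC100280631 stood at 34.2 ± 1.24 CPM. The sum stood at 207.6, 219.4, 217.7 and 208.2 CPM in replicates 1 to 4, and replicate 4 lay within the range of the others.

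Against 43.5% of all genes, 3 of 12 other wound and defence genes were detected. They were PAL1, for the entry enzyme of the phenylpropanoid route, at 288 ± 22.4 CPM with non-whole counts in 3 libraries, hpl1, for a hydroperoxide lyase that competes with allene oxide synthase, at 26.4 ± 1.79 CPM, and pr5 at 7.91 ± 3.55 CPM. The herbivore-induced terpene synthase genes tps10 and tps23 had no count in any library, and mir1, for a defensive cysteine protease, stood at 0.0395 ± 0.0337 CPM.

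**Figure D5:**
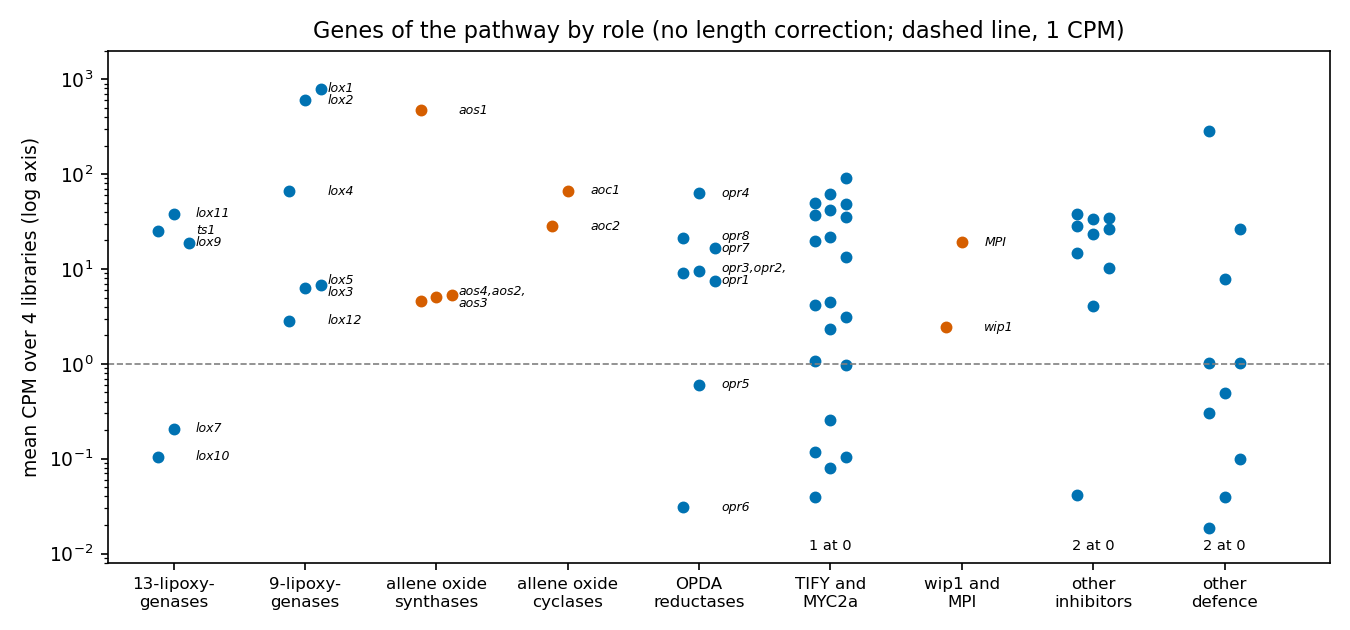
Mean CPM of the genes of each step, without length correction, on a log axis. The 8 genes of the report are in orange and other listed genes in blue, the dashed line marks 1 CPM, and lox6 is not shown. Each step from lipoxygenase to reductase held at least 1 gene above 10 CPM.

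The 5 lists from lipoxygenases to defence genes held 66 genes, among them 12 other protease inhibitors, 12 other wound or defence genes and 21 TIFY genes. They are thus not all genes of the jasmonate pathway. Of the 66, 42 were detected, against 43.5% of all 48174 genes, and 47 entered the tests of spread. Of these, 23 varied beyond counting error, against 25.7% of all tested genes. That share is not matched for level, and was 71.0% at 100 CPM or more and 28.8% at 10 to 100 CPM. Of the 47, 0 had a dispersion above the trend (edgeR quasi-likelihood, adjusted p of 0.05), against 0.0396%. At an unadjusted p of 0.05 there were 11, against 5.94% of all tested genes, and 2 (opr2 and pr5) were among DESeq2's dispersion outliers, against 0.765%. Among those that varied beyond counting error, the 6 lipoxygenases were lox1, lox2, lox5, lox6, lox11 and ts1, with CVs from 8.20 to 16.4%. The 4 reductases were opr2, opr3, opr4 and opr8 (9.51 to 33.6%). Among signalling genes they were MYC2a and the TIFY genes LOC100276383, LOC100383759, LOC100273108, LOC100282175, LOC100281912 and LOC100284433 (5.93 to 27.2%). Among inhibitors they were LOC100101525, LOC732754 and LOC100193387 (8.50 to 13.7%), and among defence genes PAL1, pr5 and PR10 (7.76 to 44.8%).

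The genes nearest in read counts were sought only among those with a symbol other than a LOC number and a count in every library. These were 216 genes for aos1 and 217 for MPI. Nearest to aos1 over the 4 libraries were OBF1 (464 ± 16.3 CPM) and MNB1B (513 ± 27.7 CPM), at Euclidean distances of 0.170 and 0.316 in log2 CPM. Those nearest to MPI were mbd123 (18.6 ± 1.87 CPM) and sfp3 (18.3 ± 1.27 CPM), at 0.691 and 0.765. The distance reflects level, and replicates of 1 group give no pattern across conditions. In replicate 4, where MPI stood at 11.3 CPM, mbd123 stood at 17.2 and sfp3 at 17.8 CPM.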

How the data were processed

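For 4 samples the authors deposited a table of estimated counts, without normalization, keyed by NCBI gene number, and each sample's own file held the same values. The tools named in the submitters' processing notes are STAR 2.7.10b, HTSeq, UMI-tools, SAMtools, deepTools and Trimmomatic (0.36 and 0.39). No source used here gives the genome build, the collapsing of molecular identifiers, strand in counting or the way reads were shared between genes. Non-whole counts (tolerance 0.001) made up 5.17 to 5.64% of nonzero values.

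Names, neighbours and span lengths came from RefSeq's annotation of Zm-B73-REFERENCE-NAM-5.0, in which 48127 of the 48174 genes were found. Coding lengths, planned for comparing genes, were not at hand, so the gene span was used and CPM is given beside it. Ratios used a pseudocount of 0.5 counts.

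Spread was tested with edgeR 4.0.16 in R 4.3.3 on rounded counts after filterByExpr and TMM scaling (factors 0.996 to 1.005), with 1 group and no contrast. Each gene's dispersion was set against the trend by an upper-tail F test, with the prior degrees of freedom of genes that are not outliers. DESeq2 1.42.0 was an alternative. On simulated counts for 22752 genes in 4 libraries, the edgeR test recovered 77 of 100 genes with a CV of 31.6% and 98 of 100 with 70.7%, and made 2 false calls. The extra spread was given only to genes of higher count. These figures hold for the simulated counts, and recovery by the edgeR test in the 4 real libraries was not tested. There MPI, with a CV of 29.6% and a dispersion 22.6 times the trend, did not pass (edgeR adjusted p = 0.0854). The chi-square test made 0 calls on Poisson counts.

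The members and gene lists were chosen with earlier results of these data known. Named genes are the 8 members, the 3 most abundant of each list, those that passed a test of spread, and the 2 nearest in level to aos1 and to MPI among genes with a symbol of their own. Others were named after their values were seen. Genes were matched to lists by name. Those whose name belongs to another kind of gene were left out: dad1, plt1, plt2 and the haemoglobin GLB1. The split of lipoxygenases by class and the comparison of replicate 4 were made after values were seen.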

Additional observations from a re-analysis of the deposited data

Results flagged for a closer look

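Dixon's criterion is the gap from the highest or lowest library to its nearest neighbour over the whole range. It was tried on 52 values: the 8 members, the 42 detected genes of the 5 lists and both sums. A library stood far from the others in 4 of them, and chance flags about 1 in 20. None of the 8 members was among them. The ratio of gap to range was 0.634 for MPI and 0.658 for aos1, under the critical value.

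lox2 was high in replicate 4, at 676 CPM against a mean of 572 CPM in the others (0.855). lox5 was high in replicate 1, at 8.30 against 6.27 CPM (0.912). opr4 was high in replicate 3, at 72.6 against 59.3 CPM (0.838). The serpin gene LOC100193387 was low in replicate 3, at 20.4 against 24.3 CPM (0.862).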

How the results depend on the processing

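Levels of the 8 members moved by less than 1 SD in each of 48 settings (TMM-effective library sizes, DESeq2 size factors, each replicate left out). This outcome was fixed in advance and is no test of the levels. Leaving out 1 of 4 libraries cannot move a mean by 1 SD, and the scaling factors were all between 0.995 and 1.005. Of 100 settings over 14 log2 ratios, 5 turned the sign. This is no rate of stability, since many settings could not turn it. Where all 4 libraries had the same sign, leaving 1 out could not turn the mean, and the other pseudocounts moved the means little. Of the 13 pairs, those that turned without length correction were aos2 to aos3 (-0.10), MPI to aoc2 (-0.63) and wip1 to aos2 (-1.04). MPI to aoc2 ran from -0.11 to 0.28 over the fits on 3 libraries, below 0 without replicate 2. The ratio of synthesis genes to inhibitors was -0.10 between the median of the 6 synthesis genes and that of the 2 inhibitors. For the sums it was 2.03 without aos1, 6.54 with MPI left out and 3.90 with wip1 left out, all 3 chosen after seeing the data. Over the fits on 3 libraries it ran from 3.45 to 3.86. The number of members more variable than genes of equal abundance was 0. It was 1, each time MPI, without a filter on low counts, by DESeq2's dispersion outliers and without replicate 3, so that it lay at 0 to 1 over the fits on 3 libraries. These settings called more genes, 494 of 32095, 174 of 22752 and 100 of 22857, against 9 of 22752. The 2 members that varied beyond counting error, and the 8 detected, were 2 and 8 in every setting run. The 42 detected genes of the 5 lists were 46 at 0.5 CPM, 47 at 10 counts and 42 to 43 over the fits on 3 libraries. Each of these settings was looser than 1 CPM in all 4 libraries, so the 8 and the 42 detected could not fall. No paired analysis was possible because the study has 1 group, so replicate numbers pair no samples across groups; genes were compared within libraries.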

Other observations

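Some low defence genes were uneven between libraries, chosen here after their values were seen. The thaumatin-like gene pr5 stood at 12.02, 5.73, 9.62 and 4.28 CPM in replicates 1 to 4, with a dispersion that did not pass the edgeR test (adjusted p = 0.0765). PR10 stood at 1.07, 0.619, 0.745 and 1.62 CPM, highest where pr5 was lowest. The ribosome-inactivating protein gene rip2 (0.344, 1.07, 0.298 and 0.257 CPM) and prp4 (0.153, 0.701, 0.224 and 0.128 CPM) were highest in replicate 2, as was MPI. Both were below 1 CPM in at least 3 libraries. Outside replicate 2 they lay at low counts, where 1 count is 0.0373 to 0.0428 CPM.

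opr2 and opr3, which belong to the same reductase family, were also uneven. opr2 stood at 13.1, 7.80, 9.21 and 5.99 CPM, highest in replicate 1 (edgeR adjusted p = 0.187). opr3 stood at 5.36, 9.44, 8.05 and 7.31 CPM, lowest in replicate 1 (edgeR adjusted p = 0.595). lox1 stood at 742, 794, 751 and 884 CPM and, like lox2 and aos1, was highest in replicate 4, the library in which MPI was lowest.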
